A study of Mus musculus with 21 samples.

Results

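Thioacetamide (TAA) is a hepatotoxin that pericentral hepatocytes turn into reactive products, and repeated injection scars the liver. The comparison described here took mouse liver after 8 weeks of intraperitoneal TAA and set a hepatocyte-specific deletion of Nlrp3 against wild type, across protein-coding genes. Members were the genes whose transcript type in the deposited table holds protein_coding, that lie off chromosome MT and that had a mean of at least 1 FPKM (fragments per kilobase of transcript, scaled to mapped depth) over the 6 libraries. They numbered 9723 of the 34280 genes in the table. Just inside the threshold lay Vsig2 and Zfp874b at a mean of 1.0 FPKM, and just outside lay Foxp1 and Dnajb14 at 0.998.

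Both groups are whole-liver total RNA, with 3 libraries each of the 21 in the series, and every animal received TAA. The labels give the deletion group as hepatocyte-specific Nlrp3 deletion and the other as wild type. They name no promoter that drives the deletion, no deleted exon, and no Cre or floxed allele in the wild-type mice, and they give neither strain nor age. No saline-treated liver of either genotype was analysed here, so the comparison is between genotypes under TAA and holds no measure of the injury itself. Nothing in the labels says that the libraries came from separate mice, so p-values measure the spread between these libraries, which may be technical.

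NLRP3 is a cytosolic sensor of cell damage and microbial products. With the adaptor ASC, encoded by Pycard, it activates caspase-1, which matures the cytokines IL-1beta and IL-18 and cleaves gasdermin D, the pore-forming protein of pyroptosis. The pathway is best described in macrophages, and hepatocytes carry it at lower levels. Hepatocytes themselves make most plasma proteins, clear ammonia, synthesize bile acids and detoxify drugs, and they divide these tasks between periportal and pericentral zones.

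The libraries differed in make-up along the line of the groups. Assigned counts per library ran from 32096879 to 45900668 in wild type and from 52200285 to 68913793 with the deletion. Genes of chromosome MT took 27.8% to 34.7% of counts in wild type and 5.63% to 12.5% with the deletion, and rRNA genes took 1.83% to 10.3% against 0.313% to 0.464%. The coding members took 43.4% to 55.9% against 79.3% to 88.9%. For each share the exact permutation test (two-sided) gave p = 0.1, the smallest that 3 libraries against 3 can give, and Wilson 95% half-widths, which cover counting error only, were at most 0.0175 percentage points. Make-up and genotype cannot be told apart here, and the part of make-up in the results below was not tested.

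**Figure D1:**
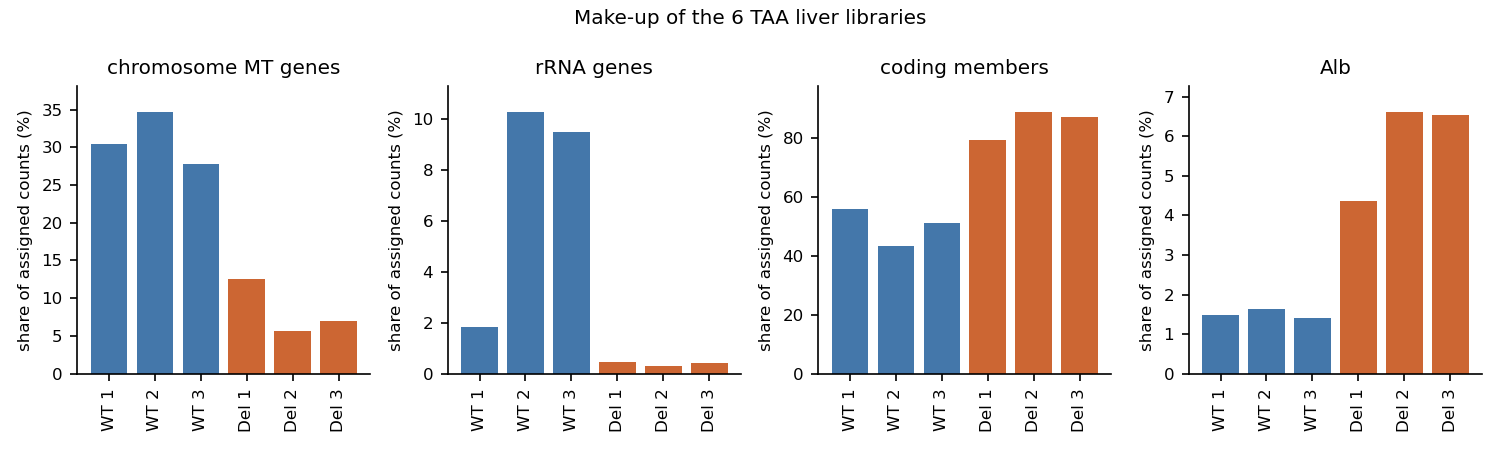
Bars give the share of assigned counts (%) in each of the 6 libraries for genes of chromosome MT, rRNA genes, the coding members and Alb (blue, wild type; orange, deletion). Chromosome MT shares lie between 5.63% and 12.5% in the deletion libraries and between 27.8% and 34.7% in wild type.

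Deletion replicate 1 stood between the groups. The median absolute log2 difference over tested members was 0.19 to 0.23 between wild-type libraries. It was 0.32 to 0.35 between deletion replicate 1 and wild type, 0.60 to 0.64 for replicate 2 and 0.74 to 0.78 for replicate 3. Replicates 2 and 3 differed from each other by 0.26, and replicate 1 differed from them by 0.46 and 0.61. Counts without deletion replicate 1 are therefore given beside those of the gene groups. That library was picked from these same values as the deletion library nearest to wild type. Leaving it out thus favours larger differences and more calls, so these counts are no independent check of the others.

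The targeted gene did not separate the groups. Nlrp3 (chromosome 11, 59541568 to 59566956, mm10) fell below the level for membership, with 0.15, 0.11 and 0.17 FPKM in wild type and 0.08, 0.37 and 0.25 FPKM with the deletion. The groups overlapped, and deletion replicates 2 and 3 held the highest values. The log2 fold change, deletion over wild type, was 0.28 ± 0.63 (SE, n = 3 libraries a group), with an edgeR adjusted p of 0.797 and an exact permutation p on FPKM of 0.4. Whole liver also holds Nlrp3 RNA of other cells, and a gene-level count takes in exons outside any deleted part, so these values do not check the label. Of 78 tested members that start within 5 Mb of Nlrp3, 1 rose (1.28%) and none fell, with a median log2 fold change of 0.04. That gene was Pemt, which methylates phosphatidylethanolamine to phosphatidylcholine, at 31.88, 23.29 and 30.84 FPKM in wild type and 78.28, 95.27 and 86.66 FPKM with the deletion.

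The partners of NLRP3 did not pass the test either. None of the 12 tested members of the inflammasome and pyroptosis list was called, against 2.63% of all members. At that share, no call among 12 does not set the list apart. Its median log2 fold change was -0.07, between -0.15 and 0.26 over the alternatives. Gasdermin D (Gsdmd) stood at 17.12, 10.27 and 14.64 FPKM in wild type and 15.04, 9.83 and 8.39 FPKM with the deletion, a log2 fold change of -0.67 ± 0.27 (adjusted p = 0.154). Casp1 lay at 0.94, 1.37 and 1.95 FPKM against 1.29, 1.18 and 1.63 FPKM, and Il18 at 4.43, 4.37 and 5.70 against 7.53, 4.56 and 4.94 FPKM, with overlapping groups in both. Casp4, which senses cytosolic lipopolysaccharide, had a log2 fold change of -0.61 (adjusted p = 0.298). Pycard and Il1b were below membership, at 0.32 to 0.97 FPKM and 0.23 to 1.26 FPKM over the 6 libraries. Without deletion replicate 1, Nek7, the kinase that binds NLRP3, and Ninj1, which ruptures the plasma membrane in lytic death, passed the threshold higher, and Gsdmd passed it lower. That fit called 3 of the 12 higher and 2 lower, and DESeq2 on all 6 libraries called 2 higher and 0 lower. Over all members the fit without deletion replicate 1 called 2867 higher and 2246 lower of 9721, and DESeq2 1787 and 870 of 9716. Sting1, the adaptor of cytosolic DNA sensing, read 1.47, 1.48 and 2.15 FPKM in wild type and 1.17, 1.57 and 2.32 FPKM with the deletion, and none of the 10 members of its list was called, against 2 each way without deletion replicate 1 and 2 higher by DESeq2.

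Across all coding members, higher calls outnumbered lower ones. Of 9716 members tested, 231 rose (2.38%) and 25 fell (0.257%) with the deletion, 2.63% in all, at an adjusted p under 0.05 (edgeR quasi-likelihood test, Benjamini-Hochberg over 18619 genes). Over all 18619 genes tested, 1.37% were called higher and 0.36% lower, 1.73% in all, and the groups did not overlap for 17.5% on the higher side and 18.7% on the lower side, 36.3% together. The median log2 fold change was 1.44 among those that rose, -1.43 among those that fell and 0.10 over all members. On the deposited FPKM scale the median over members was 0.47, so changes below are read against these medians and not against 0. Fold changes are on the TMM scale, and for genes that rose they are smaller than the ratio of the FPKM values printed beside them. The groups did not overlap, on CPM (counts scaled by library size and TMM, trimmed mean of M-values, factors), for 26.3% of members on the higher side and 18.8% on the lower side, 45.1% together.

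These calls sat on the threshold. Apart from Rab43 at an adjusted p of 0.00152, every called member had an adjusted p between 0.0487 and 0.04995, and 208 shared the lowest of these values. Under a threshold of 0.04 only Rab43 was called, and under 0.06 the counts were 779 higher and 166 lower. The counts without deletion replicate 1 were 2867 higher and 2246 lower of 9721 members tested, including all 231 and all 25. List counts from that fit are read against these. Without wild-type replicate 2 or wild-type replicate 3 edgeR called none, with 2826 and 2758 members at an unadjusted p under 0.05. Without wild-type replicate 1 it called 6 higher and 4 lower, without deletion replicate 2 it called 1 each way, and without deletion replicate 3 it called 1 higher. DESeq2 on all 6 libraries called 1787 higher and 870 lower of 9716, and its list counts are read against these. By contrast, edgeR with RLE (relative log expression) size factors called Rab43 alone. Deletion replicate 1 was the lowest of the deletion libraries in 199 of the 231 genes that rose.

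**Figure D2:**
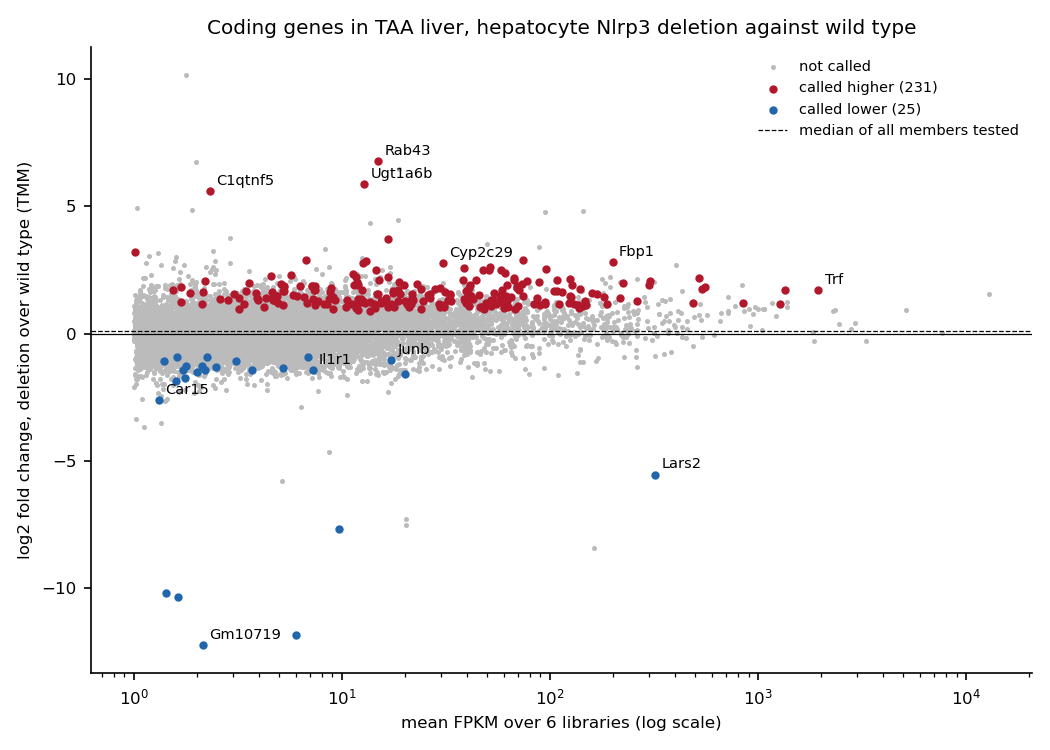
Each point is a tested coding member, with mean FPKM over 6 libraries on a log axis and log2 fold change (deletion over wild type, TMM) on the other. Red points are the 231 called higher, blue the 25 called lower, and most red points lie toward the high-FPKM end.

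The genes that rose were mostly abundant ones. Of the 231, 172 lay in the top quartile of mean FPKM (over 10.41 FPKM), where 7.08% were called higher, against 0.288% in the lowest quartile. The quartile with the shortest exon models had a median log2 fold change of 0.25 and the longest -0.05. The quartile with the lowest exon GC content had 0.31 and the highest -0.15. The lists below differ in these properties, and their part in the list medians was not tested.

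Part of the hepatocyte identity list rose with the deletion. Of 24 tested members, 6 rose and none fell, with a median log2 fold change of 0.96. In all, 20 lay above 0 and 4 below, down to -1.10. With no overlap, 58.3% lay higher and 8.33% lower, against 26.3% and 18.8% of all members. Trf, the plasma iron carrier transferrin, read 782.78, 646.62 and 807.67 FPKM in wild type and 2205.59, 3520.66 and 3724.73 FPKM with the deletion. That is a 3.24-fold rise on the TMM scale (log2 1.70 ± 0.26). Fgg, the gamma chain of fibrinogen, rose 4.15-fold by TMM, from 90.10, 76.36 and 114.45 FPKM to 271.35, 671.73 and 581.96 FPKM. Ahsg, the mineral-binding glycoprotein fetuin-A, rose 3.25-fold, and Fgb, the beta chain of fibrinogen, 2.45-fold. In all 4 the lowest deletion library lay above the highest wild-type one.

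Other abundant hepatocyte transcripts did not pass. Alb, the major plasma protein and the highest of all members, read 5214.95, 5674.08 and 4925.51 FPKM against 15016.28, 23320.37 and 23354.17 FPKM, with no overlap, and just missed the threshold (log2 1.55 ± 0.31, adjusted p = 0.0501). Apoe, which carries lipoprotein remnants to their receptors, read 2522.73 to 3209.60 FPKM against 5957.06 to 8026.39 FPKM, also with no overlap (adjusted p = 0.0682). Apoa2, a main protein of high-density lipoprotein, read 7558.73, 5438.38 and 7126.42 FPKM against 13560.79, 6395.78 and 5646.49 FPKM, with a log2 fold change of 0.01 ± 0.38. Its highest value was in deletion replicate 1, and without that library it passed the threshold lower, at -0.56 (adjusted p = 0.0361). Apoc1, a small lipoprotein component, went from -0.28 to -1.16 in the same way (adjusted p = 0.00317 without replicate 1). Of the 24 without deletion replicate 1, 14 were called higher and 4 lower. None of 25 tested hepatocyte transcription factors was called, which at 2.63% called over all members does not set that list apart. Its median was 0.12, and with no overlap 12% lay higher and 16% lower. Without deletion replicate 1 the counts of that list were 7 higher and 5 lower, and DESeq2 called 4 and 2.

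Both liver zones had members that rose. All 18 periportal members had a log2 fold change above 0, with a median of 1.48, the highest of the lists with at least 10 tested members; 3 rose and none fell. Aldh1b1, a mitochondrial aldehyde dehydrogenase, read 11.74, 8.39 and 13.61 FPKM against 36.68, 96.80 and 117.12 FPKM, a 5.71-fold rise by TMM. Ass1, which joins citrulline to aspartate in the urea cycle, rose 3.39-fold by TMM, from 207.62, 205.27 and 175.52 FPKM to 504.68, 953.24 and 1196.07 FPKM. Uox, the urate oxidase, rose 3.07-fold. Of 16 pericentral members, 3 rose and none fell, with a median of 0.76. In that list 11 members lay above 0 and 5 below, down to -1.20. Cyp2c29, a drug-metabolizing cytochrome P450, read 7.82, 4 and 7.01 FPKM against 19.88, 83.61 and 61.71 FPKM (6.78-fold by TMM), and its relatives Cyp2c50 (5.89-fold by TMM) and Cyp2c54 (2.85-fold by TMM) rose with it. These genes belong to one family of related sequence, and reads may be split between members. Cyp2e1, the main enzyme that activates TAA, chosen for that role after the values were seen, did not pass: 540.93, 414.43 and 608.34 FPKM against 1195.77, 1880.02 and 1129.19 FPKM (adjusted p = 0.0569). Leaving out deletion replicate 1, 13 of 18 periportal and 7 of 16 pericentral members were called higher, and 0 and 2 lower.

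**Figure D3:**
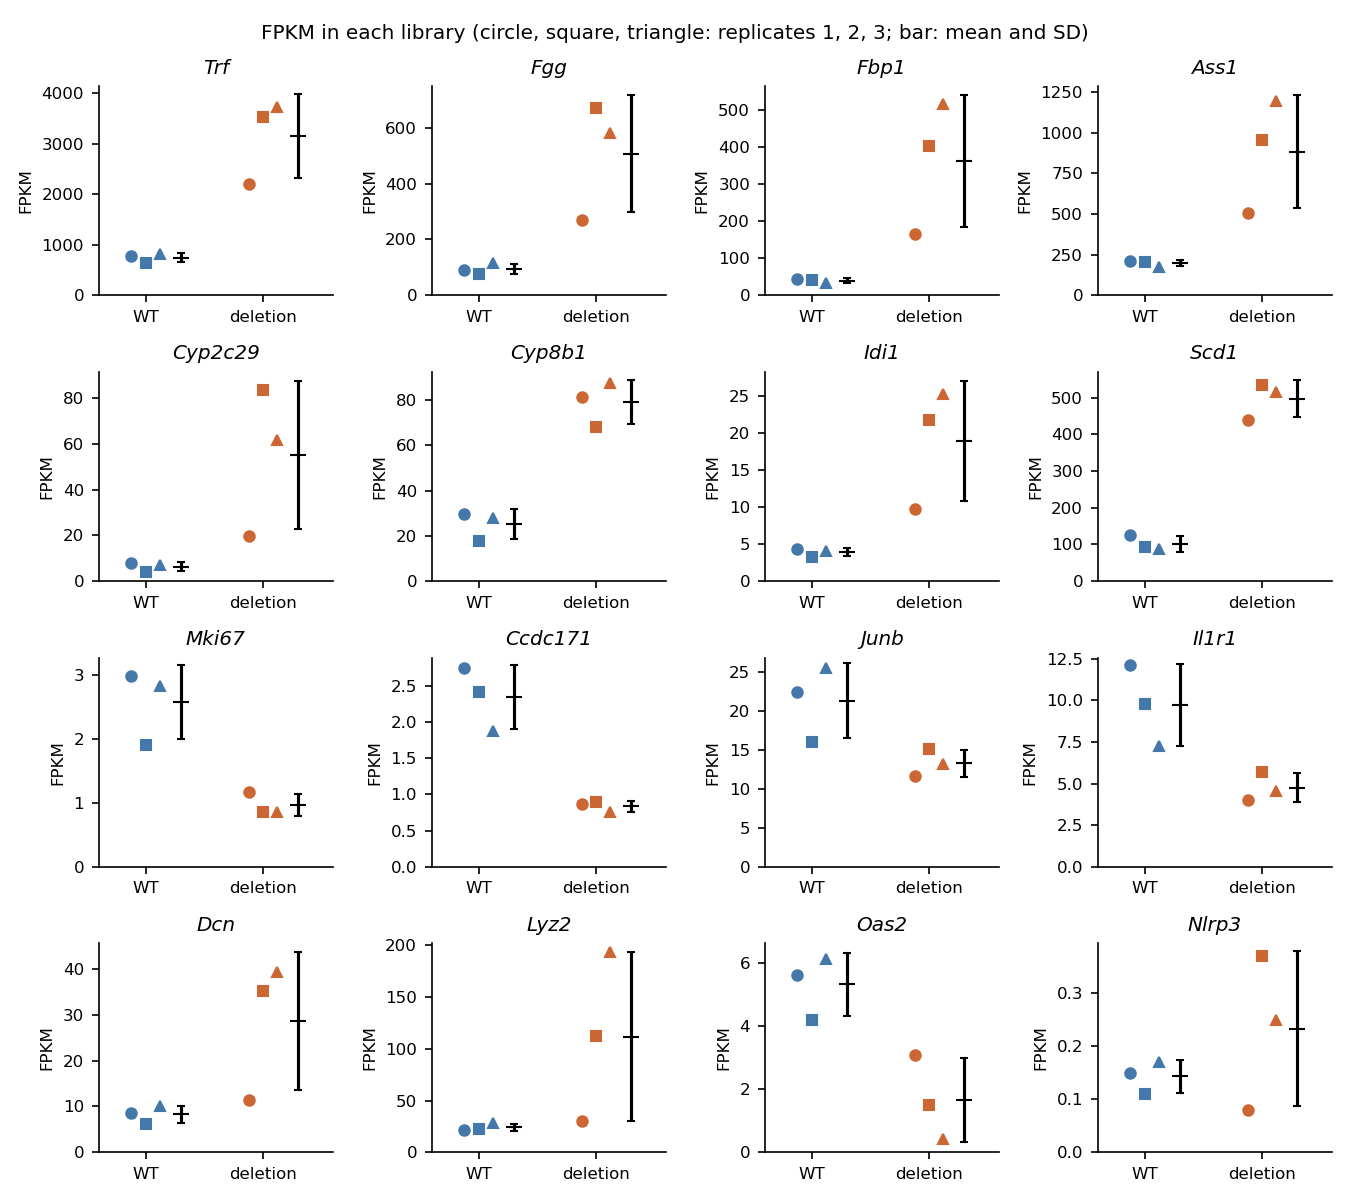
FPKM of 16 genes in each library (blue, wild type; orange, deletion; circle, square and triangle are replicates 1, 2 and 3), with the group mean and SD as a black bar. In Fgg, Fbp1, Cyp2c29 and Idi1 deletion replicate 1 lies between wild type and the other deletion libraries, while in Scd1 and Cyp8b1 the 3 deletion libraries lie close together.

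In lipogenesis and lipid droplets 7 of 22 members rose (31.8%) and none fell, with a median of 0.51. Without deletion replicate 1 the counts were 11 higher and 3 lower. Scd1, the desaturase that makes oleate, read 126.25, 92.44 and 86.49 FPKM in wild type and 440.37, 535.38 and 516.35 FPKM with the deletion. That is a 3.76-fold rise (log2 1.91 ± 0.23). The desaturases Fads1 and Fads2 rose 2.61-fold by TMM and 2.78-fold by TMM, and the elongase Elovl6 rose 2.48-fold by TMM, from 1.80, 1.52 and 2.32 FPKM to 5.94, 6.32 and 5.79 FPKM. In these 4 genes deletion replicate 1 lay with the other deletion libraries and not between the groups.

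Sterol and bile acid genes followed. In cholesterol synthesis and uptake 3 of 23 members rose and none fell (median 0.73). Idi1, the isopentenyl diphosphate isomerase, read 4.32, 3.26 and 4.04 FPKM against 9.8, 21.78 and 25.34 FPKM (3.74-fold by TMM) and Sc5d, a sterol desaturase, rose 2.23-fold by TMM. In bile acid synthesis and transport 5 of 23 rose and none fell, with a median of 0.31. With no overlap 17.4% of that list lay lower, against 18.8% of all members. Slc10a1, the sodium-dependent bile acid importer, read 12.11, 11.82 and 12.24 FPKM against 38.53, 108.01 and 123.48 FPKM (5.61-fold by TMM). Akr1d1, a steroid 5beta-reductase, rose 3.88-fold and Slc27a5, which activates bile acids with coenzyme A, 3.19-fold. Cyp8b1, the sterol 12alpha-hydroxylase that sets the share of cholic acid, read 29.75, 17.63 and 27.95 FPKM against 81.55, 68.36 and 87.65 FPKM (2.49-fold by TMM). Without deletion replicate 1 these lists had 14 and 10 higher calls, with 1 and 4 lower.

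In glucose metabolism 3 of 19 members rose and 1 fell, with a median of 0.95, against 12 and 1 without deletion replicate 1. Fbp1 (chromosome 13, 62864753 to 62888282), the fructose-bisphosphatase of gluconeogenesis, read 43.49, 41.37 and 31.56 FPKM against 166.45, 403.12 and 515.85 FPKM, a 6.98-fold rise by TMM (log2 2.80 ± 0.41). Ldha, a lactate dehydrogenase subunit, rose 2.67-fold and Eno1, the enolase of glycolysis, 3.03-fold. In urea cycle and amino acid breakdown 2 of 30 rose, Ass1 and Gnmt, and none fell, against 15 higher and 1 lower without deletion replicate 1. Gnmt, which methylates glycine and so uses up S-adenosylmethionine, read 182.65, 99.46 and 174.53 FPKM against 547.63, 1172.47 and 957.91 FPKM (4.57-fold by TMM). For 63.3% of that list the groups did not overlap on the higher side, against 26.3% of all members.

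Secreted defence proteins rose in part. Of 27 acute phase members 6 rose, and of 30 complement and coagulation members 5 rose, with none lower in either and medians of 0.80 and 0.73. With deletion replicate 1 left out, the counts were 13 higher and 1 lower and 18 higher and 4 lower. Serpina3n, a secreted serine protease inhibitor, read 20.85, 17.78 and 18.90 FPKM against 58.03, 147.76 and 137.60 FPKM (4.52-fold by TMM). Crp, the C-reactive protein, rose 3.77-fold and Itih4, an inter-alpha-trypsin inhibitor chain, 2.44-fold. Cfi, the protease that inactivates C3b, rose 4.32-fold, Mbl2, the mannose-binding lectin of the lectin pathway, 3.17-fold, F9, a clotting protease, 2.66-fold and F2, prothrombin, 2.18-fold.

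Some lists of general cell function also held calls. In autophagy and lysosome 3 of 22 rose: Ctsl, a lysosomal protease, 2.79-fold, Lamp1, a lysosomal membrane protein, 2.72-fold, and Gabarap, an autophagosome protein, 2.41-fold. In nuclear oxidative phosphorylation 2 of 36 rose, Cox5a of complex IV 2.54-fold and Ndufc2 of complex I 2.06-fold. With no overlap, 66.7% of that list lay higher, against 26.3% of all members. The proteasome list had 1 call of 26 (3.85%, against 2.38% of all members), Psmb7, a catalytic subunit, at 4.30-fold, and heat shock had 1 of 13 (7.69%), Hspe1, the mitochondrial chaperonin partner, at 2.45-fold. In drug metabolism 2 of 35 rose, Cyp2c29 and Por, the reductase that feeds electrons to cytochromes P450 (2.21-fold), with a median of 0.88. Leaving out deletion replicate 1, autophagy and lysosome had 15 higher and 3 lower, oxidative phosphorylation 20 and 3, proteasome 14 and 3, heat shock 4 and 2 and drug metabolism 23 and 2. None of 30 members in fatty acid oxidation and of 39 cytosolic ribosomal proteins was called by edgeR, against 2.63% of all members. Their medians were 0.65 and 0.26. The counts without deletion replicate 1 were 16 higher and 0 lower and 11 higher and 5 lower, and DESeq2 on all 6 libraries called 15 and 11 higher and none lower. Over all members these fits called 2867 higher and 2246 lower of 9721, and 1787 and 870 of 9716.

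Among cytokines 1 of 18 members rose: Cxcl12, a chemokine that holds and recruits CXCR4-bearing cells, read 8.89, 6.52 and 8.15 FPKM against 19.39, 37.27 and 33.53 FPKM (2.94-fold by TMM). The median of that list was -0.16, between -0.24 and 0.22 over the alternatives. Without deletion replicate 1 the counts were 5 higher and 4 lower, against 2867 and 2246 of all 9721 members in that fit. Interferon-stimulated genes held no call of 39, against 2.63% of all members. Their median of -0.31 moved between -0.38 and 0.06 over the alternatives. With no overlap, 46.2% lay lower, against 18.8% of all members, and 10.3% higher, against 26.3%. Oas2, an antiviral oligoadenylate synthetase named after its values were seen, had the lowest log2 fold change of the list. It read 5.64, 4.20 and 6.14 FPKM against 3.09, 1.49 and 0.43 FPKM (adjusted p = 0.0870). Bst2, the most abundant member, went the other way, at 74.26, 68.80 and 89.82 against 158.53, 155.93 and 138.79 FPKM (adjusted p = 0.102). In all, 24 members lay below 0 and 15 above. The list summed to 261.4 to 334.0 FPKM in wild type and 363.5 to 399.6 FPKM with the deletion. Without deletion replicate 1, 13 of the 39 were called lower and 4 higher, and DESeq2 on all 6 libraries called 5 lower and 2 higher.

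Immediate early genes were the list with the lowest median among those of at least 10 tested members, at -0.59. It stayed below 0 in all the alternatives, from -0.70 to -0.19. Junb, a subunit of the AP-1 transcription factor, was the 1 member of 16 that fell, from 22.38, 15.98 and 25.42 FPKM to 11.62, 15.07 and 13.14 FPKM, 2.06-fold on the TMM scale. With no overlap, 56.2% of the list lay lower, against 18.8% of all members, and 12.5% higher, against 26.3%. Without deletion replicate 1 the counts were 1 higher and 8 lower. In cell cycle 1 of 18 fell and none rose, against 2 lower and 3 higher without deletion replicate 1. Mki67, the proliferation antigen Ki-67, read 2.98, 1.91 and 2.83 FPKM against 1.16, 0.86 and 0.86 FPKM, a 3.40-fold fall by TMM (log2 -1.76 ± 0.23). Its deletion mean was 0.96 FPKM, so it reached membership only through wild type. Pcna, the sliding clamp of DNA replication, lay on the other side at 3.12, 2.18 and 3.21 FPKM against 5.53, 12.76 and 14.61 FPKM, and did not pass (adjusted p = 0.0501). Without deletion replicate 1 it was called higher, at log2 1.87.

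**Figure D4:**
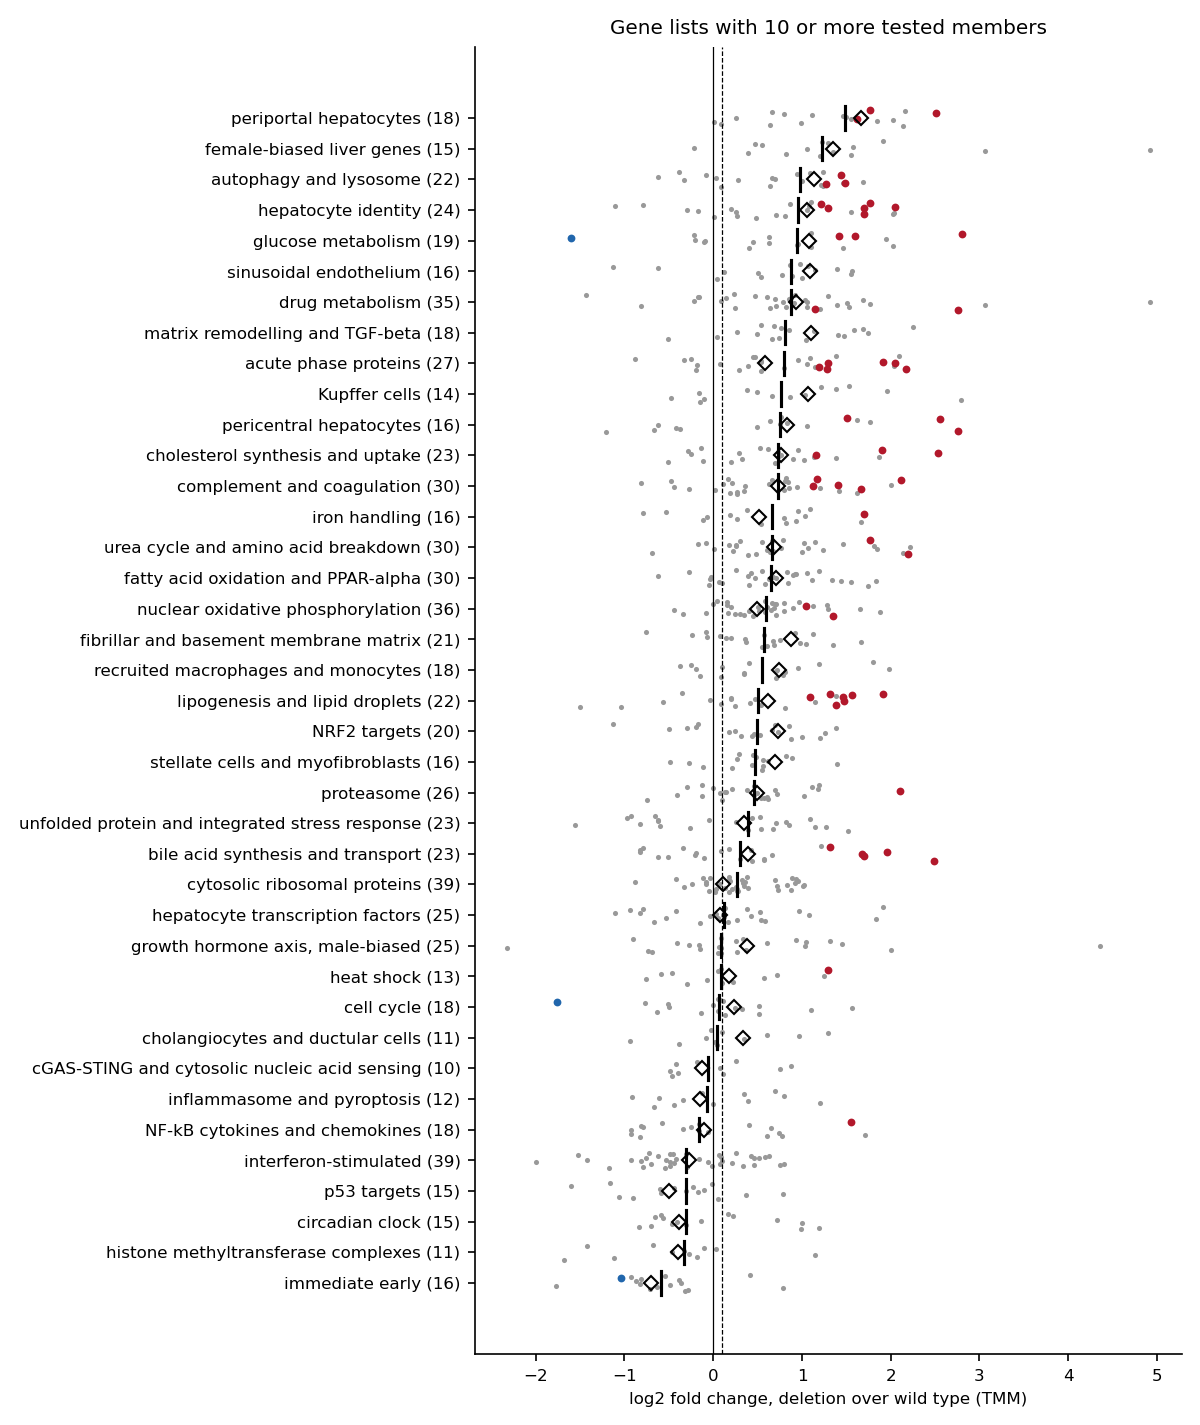
Log2 fold changes (deletion over wild type, TMM) of the members of each list with at least 10 tested, with the number tested in brackets. Red and blue points are members called higher and lower, the thick bar is the list median, the open diamond is the median without deletion replicate 1, and the dashed line is the median of all members (0.10). Periportal hepatocytes are at the top (median 1.48) and immediate early genes at the bottom (-0.59).

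Genes of scar tissue and of the other liver cells held no call by edgeR in the 6 libraries. Only 2.63% of all members were called, so no call in lists of this size does not set them apart. None of 21 members of fibrillar and basement membrane matrix, of 18 in matrix remodelling and TGF-beta and of 16 stellate cell and myofibroblast genes was called, with medians of 0.57, 0.81 and 0.47. Leaving out deletion replicate 1, 13, 14 and 9 of them were called higher and 1, 0 and 0 lower. DESeq2 on all 6 libraries called 4, 8 and 2 higher and 0, 0 and 0 lower. Over all members these fits called 2867 higher and 2246 lower of 9721, and 1787 and 870 of 9716. Fn1, the matrix protein fibronectin, read 28.60, 25.39 and 28.09 FPKM against 38.55, 80.51 and 63.45 FPKM (adjusted p = 0.113). Dcn, the collagen-binding proteoglycan decorin, read 8.58, 6.27 and 10.01 FPKM against 11.43, 35.10 and 39.36 FPKM (adjusted p = 0.0756). Bgn, its relative biglycan, and Sparc, a collagen-binding glycoprotein, had groups that overlapped, with deletion replicate 1 at 10.68 and 13.66 FPKM and replicates 2 and 3 at 30.03 and 37.64 and at 28.84 and 40.50 FPKM. Mmp2, a gelatinase, and Tgfbr2, a TGF-beta receptor, both named after their values were seen, read 1.72, 1.72 and 2.32 against 2.65, 9.5 and 10.83 FPKM, and 1.57, 1.27 and 0.94 against 2.68, 5.63 and 7.80 FPKM. In each of these 6 genes deletion replicate 1 was closer to wild type than replicates 2 and 3 were.

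Macrophage and endothelial markers held no call either, which at 2.63% called over all members does not set these lists apart. None was called of 18 recruited macrophage, 14 Kupffer cell and 16 sinusoidal endothelium markers, with medians of 0.55, 0.76 and 0.88, against 9, 8 and 9 higher and 0, 0 and 2 lower without deletion replicate 1. DESeq2 on all 6 libraries called 4, 5 and 4 higher and 0, 0 and 1 lower. Both sets of counts are read against the same all-member counts as for the scar tissue lists. Lyz2, a lysozyme of myeloid cells, read 21.93, 22.61 and 27.89 FPKM against 30.08, 112.16 and 192.73 FPKM. C1qb, a complement C1q chain made by macrophages, read 20.07, 17.90 and 23.28 FPKM against 28.89, 76.98 and 81.17 FPKM, while its partner C1qa read 32.80, 31.92 and 38.06 FPKM against 46.81, 66.58 and 61.70 FPKM. Plvap, which forms the diaphragms of endothelial fenestrae, just missed the threshold, at 5.61, 4.51 and 6.99 FPKM against 11.22, 25.46 and 22.12 FPKM (adjusted p = 0.0501). The endothelial list as a whole summed to 74.93, 89.72 and 141.63 FPKM in deletion replicates 1, 2 and 3, so there replicate 3 stood apart. Cd74, the invariant chain of MHC class II, read 24.91, 26.98 and 41.87 FPKM against 50.79, 144.93 and 125.13 FPKM (adjusted p = 0.0712). In whole liver, more cells of a type and more RNA per cell cannot be told apart.

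The summed FPKM of whole marker lists moved as well. The hepatocyte list summed to 20071 to 23289 FPKM in wild type and 50230 to 51303 FPKM with the deletion. Recruited macrophage markers summed to 185.7 to 357.2 against 272.1 to 696.5 FPKM, which overlap. Kupffer cell markers summed to 166.2 to 215.4 against 238.6 to 451.2 FPKM, and stellate cell markers to 59.55 to 78.01 against 88.31 to 130.7 FPKM. Red blood cell genes summed to 87.20 to 133.1 FPKM against 172.1 to 417.3 FPKM, so each deletion library lay above each wild-type one on that scale. Duct cell markers overlapped, at 341.4 to 655.9 against 478.2 to 588.2 FPKM. Since FPKM counts chromosome MT reads in its total, these sums rise where the chromosome MT share falls, and the part of either in the calls was not tested. All 6 libraries held Y-linked RNA (Ddx3y 6.54 to 9.37 FPKM) and at most 0.08 FPKM of Xist.

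Of the 25 members that fell, 5 were Gm-numbered predicted genes, which belong to a family of near-identical copies between which reads may be split, and 4 of these had no count in any deletion library. Gm10719 read 1.74, 7.02 and 4.09 FPKM in wild type, at least 259-fold, in CPM, above a floor of 3 counts per deletion library, and Gm10801 read 6.88, 18.24 and 10.99 FPKM, at least 199-fold above it. Gm10720 and Gm10721 lay at least 70.9-fold and 62.6-fold above it, and Gm10722 read 8.39, 32.64 and 16.87 FPKM against 0.39, 0 and 0 FPKM. All 5 reached the mean of 1 FPKM only through the wild-type libraries, so membership itself required a difference. Lars2 (chromosome 9, 123366927 to 123462666), the mitochondrial leucyl-tRNA synthetase, read 129.45, 873.57 and 868.33 FPKM against 24.66, 15.92 and 14.03 FPKM, a 46.5-fold fall by TMM. Wild-type replicate 1 was the lowest of its group for Lars2 and also had the lowest rRNA share, 1.83% against 10.3% and 9.51%. The part of rRNA reads in the Lars2 count was not tested.

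The other falls were smaller. Il1r1, the receptor for IL-1, read 12.13, 9.78 and 7.23 FPKM against 4.01, 5.70 and 4.54 FPKM, a 2.69-fold fall by TMM (log2 -1.43 ± 0.25) with no overlap. Ccdc171, a coiled-coil protein, fell 3.66-fold, Map3k6, a stress-activated kinase, 2.84-fold, and Thumpd2, of the THUMP-domain RNA methyltransferases, 2.73-fold. Ccdc171, Mki67 and Car15 had deletion means of 0.837, 0.96 and 0.453 FPKM, so they too reached membership only through wild type. Chrnb1, a nicotinic acetylcholine receptor subunit, fell 2.68-fold and Brd9, a bromodomain subunit of a SWI/SNF complex, 2.66-fold.

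Several of the largest rises came from genes whose exons overlap another gene on the same strand. Rab43 (chromosome 6, 87788853 to 87812098, minus strand), a small GTPase of membrane traffic, read 0.22, 0.20 and 0.19 FPKM in wild type and 18.25, 30.56 and 40.47 FPKM with the deletion. The overlapping Gm45140 (chromosome 6, 87788861 to 87835795) read 10.79, 9.80 and 9.44 FPKM against 0.01, 0.72 and 0.00 FPKM. The counts of one gene were thus high where those of the other were low. Summed into one locus they read 81.1, 97.4 and 74.8 CPM in wild type and 131, 190 and 252 with the deletion, a log2 fold change of 1.18 ± 0.27 (adjusted p = 0.0492) in place of 6.78 for Rab43 alone.

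**Figure D5:**
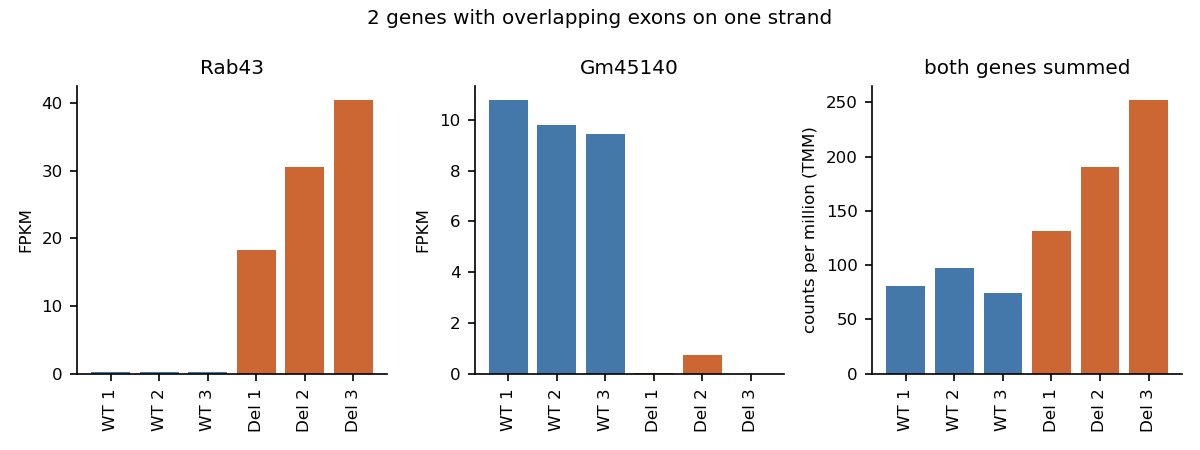
FPKM of Rab43 and of Gm45140, whose exons overlap on the same strand, and TMM-scaled CPM of both summed, in each library (blue, wild type; orange, deletion). The summed values run from 74.8 to 97.4 in wild type and from 131 to 252 with the deletion.

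Of the 256 called members, 21 overlap another gene in this way, and 15 of the 21 stayed under an adjusted p of 0.05 in the same direction after summing. Ugt1a6b, a glucuronosyltransferase whose last exons are shared with the rest of the Ugt1a family, went from a log2 fold change of 5.88 to 1.23 (adjusted p = 0.0457). C1qtnf5, a C1q-related secreted protein, went from 5.60 to 0.84 (adjusted p = 0.0936) and Mrpl53, a mitochondrial ribosomal protein, from 2.86 to 0.21 (adjusted p = 0.506). Car15, a carbonic anhydrase called lower at -2.62, turned to 0.27 (adjusted p = 0.399). Of the named rises that do not overlap, the largest were in Ugt3a2, a sugar transferase for lipophilic compounds, from 1.87, 1.42 and 2.08 FPKM to 5.78, 39.25 and 49.20 FPKM (13.3-fold by TMM), and Nubpl, an assembly factor of complex I, from 0.27, 0.08 and 0.11 FPKM to 0.74, 2.45 and 2.44 FPKM (9.28-fold by TMM). Nubpl, like Rab43, Ugt1a6b and C1qtnf5, reached the mean of 1 FPKM only through the deletion libraries, so membership itself required a difference. Suox, the sulfite oxidase, rose 6.87-fold and the predicted gene Gm5096 7.49-fold. Mup19, a major urinary protein, rose 6.11-fold, but it has near-identical copies between which reads may be split.

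Next by p after Rab43 and Ugt1a6b came 3 genes in which deletion replicate 1 did not lie near wild type. Cisd1, an iron-sulfur protein of the outer mitochondrial membrane, read 22.66, 18.96 and 25.94 FPKM in wild type and 86.92, 98.80 and 100.20 FPKM with the deletion (3.27-fold by TMM, log2 1.71 ± 0.18). Gchfr, which regulates the first enzyme of tetrahydrobiopterin synthesis, read 26.64, 23.74 and 22.48 FPKM against 93.25, 126.62 and 146.33 FPKM (3.83-fold by TMM). Tmem254c, a transmembrane protein with close copies in the genome, rose 4.70-fold.

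Strain-linked genes were read for a difference in background between the groups. Nnt, whose exons are partly missing in some C57BL/6J lines, overlapped at 8.31, 4.66 and 6.86 FPKM against 8.63, 7.23 and 4.75 FPKM. Of 7 tested members of that list 1 was called: Gm4951, a predicted interferon-inducible GTPase, rose 7.38-fold by TMM, from 1.25, 1.14 and 1.35 FPKM to 3.35, 13.33 and 19.89 FPKM. The part of background in the results was not tested.

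The start regions of the called genes were searched for letters bound by liver factors. RefSeq promoter windows (GRCm38.p6), cut to the 250 bases before the start, were found by symbol for 193 of the 231 genes that rose, 15 of the 25 that fell and 7799 of all tested members. CAAAGTCCA, the letters of an HNF4 element, read on both strands, stood in 3 of the 193 (1.55%) against 0.59% of all tested members. The promoter box read as TATAAA stood in 14% against 8.08% of tested members and 12.4% of all promoters in the RefSeq table. The last share is per promoter, while the others count a gene if any of its windows matches, so it is not directly comparable. TGACNNNGC, the core that NRF2 binds, stood in 12.4% against 14.1%, and TCACNCCAC, a sterol response element, in 1.55% against 1.35%. TTGCGCAA, a C/EBP element, stood in 0.518% against 0.295%, while an HNF1 and an NF-kB element, searched by their consensus letters, stood in none of the 193, against 0.513% and 0.244%. A match is a run of letters and not a measured binding site. The 3 windows with the HNF4 letters are given for the 150 bases before the start, with those letters in capitals. Cd302 and Aadat, both called higher, were chosen for the match after values were seen. Cyp8b1 has them at -67 to -59, Cd302, a C-type lectin receptor, at -133 to -125 and Aadat, an aminotransferase of kynurenine and aminoadipate, at -72 to -64 on the opposite strand.
Cyp8b1, chr9:121916306-121916455, minus strand: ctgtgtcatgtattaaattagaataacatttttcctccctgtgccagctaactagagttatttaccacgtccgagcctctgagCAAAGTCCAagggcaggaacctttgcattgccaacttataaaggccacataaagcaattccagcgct
Cd302, chr2:60284485-60284634, minus strand: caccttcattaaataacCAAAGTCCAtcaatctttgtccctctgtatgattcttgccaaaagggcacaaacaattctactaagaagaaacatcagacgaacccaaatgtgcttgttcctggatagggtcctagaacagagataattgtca
Aadat, chr8:60505974-60506123, plus strand: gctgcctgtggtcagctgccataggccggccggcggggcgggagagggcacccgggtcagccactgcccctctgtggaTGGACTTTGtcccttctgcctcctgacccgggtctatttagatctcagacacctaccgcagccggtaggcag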

How the data were processed

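RNA was measured by RNA-seq of whole liver. Per the submitters' processing notes, reads were aligned with HISAT2 2.2.1 to mm10 and counted with featureCounts 1.5.0-p3; the sources used here do not give strandedness. The authors deposited raw counts and FPKM per gene side by side in one table of the 6 TAA libraries; both are used as deposited. Other tables of the series, normalized separately, were not used.

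Counts of all 34280 genes were fitted with edgeR 4.0.16 (R 4.3.3), with TMM factors, filterByExpr and the quasi-likelihood test, wild type against deletion, two-sided, with Benjamini-Hochberg adjustment over 18619 genes. No count test was run on FPKM; limma 3.58.1 on log2(FPKM + 1), DESeq2 1.42.0, other scalings and filters, a replicate block and leaving out each library were alternatives. On simulated counts (17753 genes) the fit called 10.4% of 2-fold, 86.6% of 4-fold and 98.5% of 8-fold changes, and also 15 unchanged genes. The simulation drew independent counts, with no library between the groups and no shift in make-up. Its shares therefore do not give recovery or false calls in the real comparison. Of 9723 members, 9716 were tested: Scgb1a1, Ugt1a2, Commd1b, Rdh16f1, Gm43738, Septin2 and a second Nnt entry were not. Exon length and GC content came from GENCODE M21 (GRCm38) for 99.96% of members.

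The members, the 51 gene lists (966 of 975 genes matched) and the tests were chosen with earlier results of these data known. Named genes were the inflammasome genes, the 15 largest called changes each way without overlap, the 5 with the smallest p each way, up to 4 called genes of each list or else its 2 most abundant, the 8 most abundant members, called neighbours of Nlrp3, and the red cell, sex-linked, rRNA-linked and strain-linked genes. Genes of lists without a call were added by smallest p after values were seen. Some genes of this rule are not reported here; they stay in the counts of their lists.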

Additional observations from a re-analysis of the deposited data

How the results depend on the processing

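The counts of called members, 231 higher and 25 lower, moved by over 1.5 times under every alternative run. RLE factors, upper-quartile factors, a threshold of 0.01 and a threshold of 0.04 each gave 1 higher and 0 lower by edgeR, with 3884 to 3907 members at an unadjusted p under 0.05. No filter on low counts gave 1014 and 209, testing only genes of at least 1 FPKM 550 and 245, library sizes from coding genes 714 and 128, robust moderation 372 and 50, and a threshold of 0.06 gave 779 and 166. DESeq2 gave 1787 and 870, limma on log2(FPKM + 1) 2165 and 77, and summing overlapping genes into loci 580 and 107. Leaving out 1 library gave 0 to 2867 higher and 0 to 2246 lower. With the replicate number as a block the counts were 1 and 0. Same-numbered libraries had deviations correlated at 0.109, 0.009 and -0.022, and the other pairs at -0.087 to 0.105. With 3 libraries a group these values cannot show whether same-numbered libraries share more than a number, and the labels do not say. The cause of these moves was not tested. The thresholds of 0.04 and 0.06 and the summed loci were chosen after seeing the data.

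The 256 called members kept their sign in every alternative except Car15, at 0.27 in summed loci. All 256 had groups that did not overlap, so leaving out 1 library could hardly turn a sign. Kept signs are thus no sign of stable calls. Nlrp3 ran from -0.15 (without deletion replicate 2) to 0.66 (without deletion replicate 1). Of 99 named genes 7 reversed. On the log2 scale Apoa2 went to -0.0654 with only genes of at least 1 FPKM and -0.136 with the block. Leaving out 1 library gave -0.56 to 0.26 for Apoa2, -1.16 to 0.033 for Apoc1 (0.024 without deletion replicate 2), -0.44 to 0.048 for Il18, -0.16 to 1.20 for Il1b and -0.072 to 0.73 for Xist. In limma Il18 went to 0.18 and Nnt to 0.046, and in summed loci Nnt went to 0.18. Of 51 list medians, 38 kept one sign and 13 did not.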
